A study of Drosophila melanogaster with 4 samples.

Results

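The 9 genes shg, arm, alpha-Cat, crb, sdt, Patj, baz, par-6 and aPKC encode the core of the adherens junction and of the apical polarity complexes of Drosophila melanogaster epithelia. They were taken by symbol from the count tables, where all 9 of 9 were found among 16489 symbols, and all 9 passed the filter on low counts. RNA was measured in whole adult heads with the eye driver GMR-Gal4 alone (control, 2 libraries) or with GMR driving an activated form of the Hippo pathway co-activator Yorkie (GMR>yki S168A, 2 libraries, called tumor tissue by the series). Each library pooled 30 heads. Both groups thus carried the driver, and the labels name no responder-only control, sex or age beyond adult. Effects of Yorkie activity, of the inserted transgene and of stock background cannot be told apart in this design. GMR acts in the developing and adult eye, whereas a head also holds brain, glia, muscle, fat body and epidermis, and in such bulk samples fewer cells of a type and less RNA per cell cannot be told apart. Whether the 2 libraries of a group came from separate crosses is not stated, so the spread among these 4 libraries may be technical. The p-values below rest on that spread, in part shared across genes. The test had a median of 11.2 degrees of freedom, of which 2 come from a gene's own libraries.

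Epithelial cells are joined near their apical side by the adherens junction, in which a transmembrane cadherin binds its neighbor outside the cell and catenins inside it. The catenins tie the cadherin to actin. Above the junction, the transmembrane protein Crumbs with its scaffolds, and the Par proteins with an atypical protein kinase C, mark the apical membrane, and the Scribble group marks the basolateral membrane. In the fly eye the same proteins hold photoreceptors, cone cells and pigment cells together and set up the stalk membrane beside the light-sensing rhabdomere. Crumbs and the junction protein Ajuba are also known as inputs to the Hippo pathway.

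In heads with yki S168A the Par complex genes moved apart. The scaffold gene baz rose 1.69-fold and par-6 fell 4.25-fold, while the kinase gene aPKC did not pass the test (log2 fold change −0.27, 95% interval −0.63 to 0.10, and −0.43 to −0.08 with 1 library left out). The beta-catenin gene arm rose 1.49-fold. The other 5 genes, shg, alpha-Cat, crb, sdt and Patj, did not pass, with log2 fold changes of 0.03 to 0.39. Changes were tested on read counts by edgeR's quasi-likelihood test, and a gene was called at a Benjamini-Hochberg adjusted p below 0.05 over all 10896 genes tested. Of the 9 genes, 3 were called, 2 higher and 1 lower, beside 27.6% of all genes tested (15.1% higher, 12.5% lower). The share of called genes among the 9 was thus near that of all genes. Their median log2 fold change was 0.29 against 0.01 over all genes tested. It rested in part on the yki S168A pair, at 0.10 (all genes −0.02) without yki S168A replicate 2 and 0.40 (all genes −0.01) without yki S168A replicate 1. The values of the 2 groups did not overlap for 6 of the 9 genes, and the same held for 63.3% of all genes tested.

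**Figure D1:**
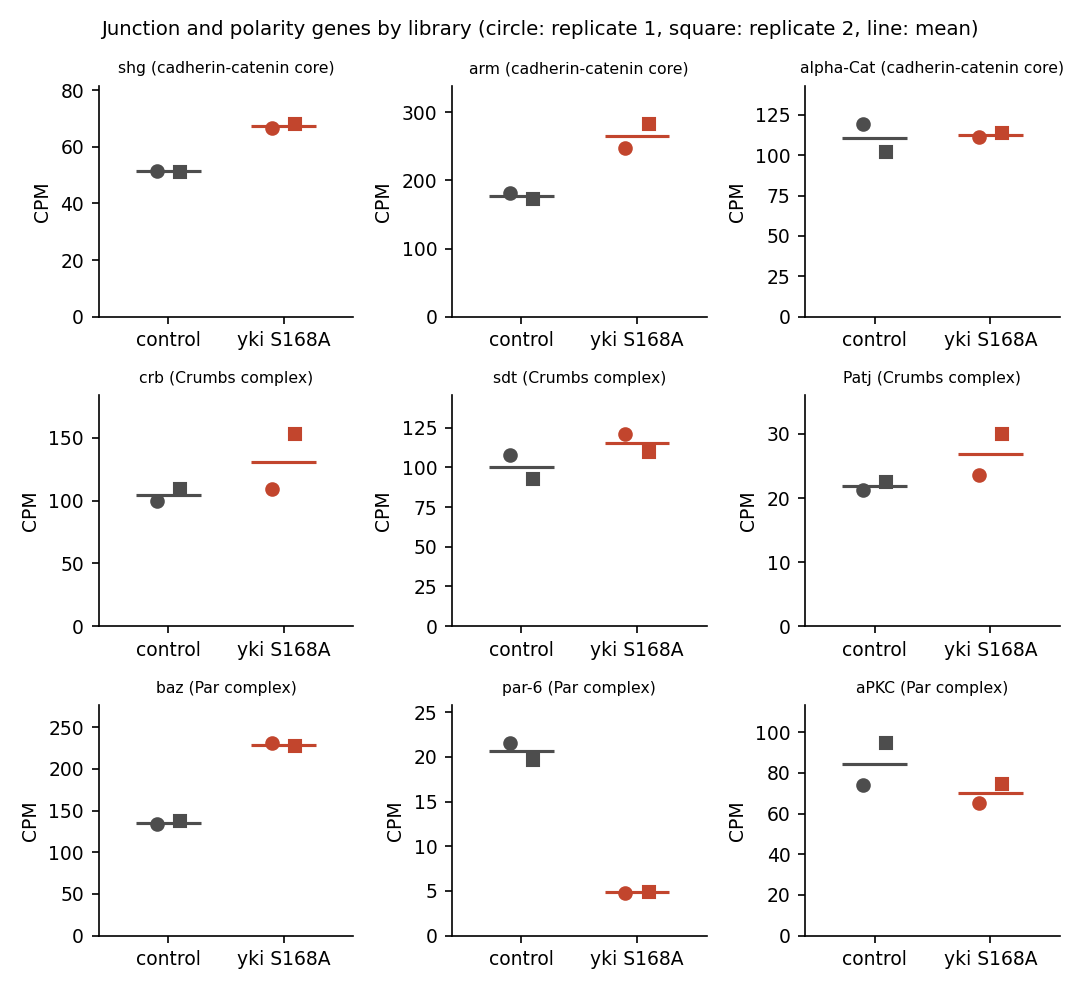
Normalised read counts (CPM, y axes from 0) of the 9 genes in each library, control in grey and yki S168A in red, with circles for replicate 1, squares for replicate 2 and lines for group means. The yki S168A libraries lie at 4.74 and 4.94 CPM for par-6, below both control libraries, and at 230.4 and 227 CPM for baz, above both.

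Values are given as CPM, read counts scaled to a common library size. The libraries held 15738860 to 18108814 counts, so 3 counts corresponded to 0.166 to 0.191 CPM. The driven gene, yki, drew 217 and 300 reads in the control pair and 531 and 479 reads in the yki S168A pair, with transgene and resident reads counted together. It was 1.93-fold higher (edgeR adjusted p = 0.0112) but did not pass once control replicate 1 was left out (log2 fold change 0.69, adjusted p = 0.138). Cell type markers also moved between the groups. Of 16 photoreceptor markers 14 were lower and 0 higher, and their summed level was 13828 to 14024 CPM in control and 4374 to 4735 CPM in yki S168A libraries. The called falls were unequal, from 1.59-fold for inaD to 215-fold for Rh6, and Rh5 and prom were not called. Of 5 neuron markers 3 were lower (summed 3070.1 to 3350.1 and 1768 to 2401 CPM), and the pan-neuronal elav was not called. All 4 epidermis markers were higher (summed 157 in both control libraries and 936 to 1313 CPM). Most of that summed difference came from the cuticle gene Cpr49Ac, at 13.5 and 9.15 CPM in control and 637 and 1039 CPM in yki S168A libraries. The cuticle gene Pcp went from 0.400 and 0.614 to 70.3 and 30.2 CPM, whereas the epithelial regulator gene grh was 1.44-fold and the septate junction gene Fas3 1.74-fold higher. Of 5 pigment and cone cell markers 2 were higher and 2 lower (summed 1225 to 1384 and 873 to 1329 CPM). These sums hide large opposite changes. Pdh was 18.1-fold lower (mean 909 and 50.3 CPM) and Crys 4.84-fold higher (mean 180.4 and 874 CPM). With smaller changes, ct was also lower and lz also higher. Of 4 glia markers 1 was higher (372 to 400.1 and 559 to 592 CPM). Most of that summed difference came from moody (mean 39.5 and 197 CPM), while repo, nrv2 and Gs2 were not called. Of 4 muscle markers 0 were called (2792 to 3272 and 2017 to 3531 CPM). Of 4 fat body markers 1 was higher and 2 lower (4318 to 4739.5 and 1558 to 2580.5 CPM). Most of that sum was apolpp (mean 3858 and 1719.7 CPM). The libraries of the higher gene, Fbp1, overlapped between the groups (5.65 and 16.1 against 14.8 and 44.5 CPM). Of 4 hemocyte markers 1 was lower (73.6 to 76.2 and 32.1 to 61.4 CPM). Beside these marker counts, 27.6% of all genes tested were called. Of 5 sex-biased genes, the yolk protein genes Yp1, Yp2 and Yp3 were 3.53-fold, 3.45-fold and 3.38-fold lower. The genes roX1 (mean 2205 and 1985 CPM) and roX2 (11.3 and 13.3 CPM) were not called. The sum of all 5 (59014 to 69468 and 15270.1 to 24534 CPM) is mostly yolk protein reads. No marker of these lists was at 0 in all libraries. The part of these shifts in the changes of the 9 genes was not tested.

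The cadherin-catenin core was measured first. The gene shg (FBgn0003391, chromosome 2R, 21049654 to 21057197, minus strand, build dm6) encodes E-cadherin, the adhesive transmembrane protein of the junction. It drew 904 and 833 reads in the control pair and 1098 and 1197 reads in the yki S168A pair, which is 51.6 and 51.1 CPM against 66.7 and 67.9 CPM. Both yki S168A libraries thus lay above both control libraries, with little spread inside either group. The means were 51.4 ± 0.353 and 67.3 ± 0.895 CPM (SD, n = 2 each), a 1.31-fold difference whose adjusted p of 0.0741 by edgeR missed the threshold (log2 fold change 0.39 ± 0.15, SE).

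The gene arm (FBgn0000117, chromosome X, 1891401 to 1900646, minus strand) encodes Armadillo, the fly beta-catenin, which binds the cadherin tail and also carries Wingless signals to the nucleus. It stood at 182 and 173 CPM in control and at 248 and 282 CPM in yki S168A libraries. The groups did not overlap. The increase from 178 ± 6.72 to 265 ± 24.2 CPM (SD, n = 2 each) had a log2 fold change of 0.58 ± 0.14 (SE) and an edgeR adjusted p of 0.0112. The size of the change stayed near this value with a control library left out, but the call was lost. It was 0.61 without control replicate 1 and 0.54 without control replicate 2. Far fewer of all genes tested were called in those fits, so many other genes lost their call too, while baz and par-6 kept theirs. Of its exonic bases 2.3% lie opposite mRpL16.

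The gene alpha-Cat (FBgn0010215, chromosome 3L, 23318646 to 23338100, minus strand) encodes alpha-catenin, the actin-binding link of the complex. Its level was 119 and 102 CPM in control against 111 and 114 CPM in yki S168A libraries. The yki S168A values lay between the control values. The log2 fold change was 0.03 with a 95% interval of −0.29 to 0.35 (edgeR adjusted p = 0.902), and its sign turned with upper-quartile scaling (−0.13) and without control replicate 2 (−0.07). A transposable element annotated on the same strand covers 11.7% of its exonic bases.

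The ratio of 2 genes within a library does not depend on how libraries are scaled. The log2 ratio of alpha-Cat to arm reads was −0.62 and −0.76 in control against −1.15 and −1.30 in yki S168A libraries. That of alpha-Cat to shg averaged 1.10 in control and was 0.74 and 0.75 in yki S168A libraries, and that of arm to shg was 1.82 and 1.76 against 1.89 and 2.05. Each of these 3 ratios separated the groups, with alpha-Cat lower relative to both partners in the yki S168A libraries. The ratios share genes, so they are not separate results. For arm to shg the gap between the groups was about the spread of the control pair. How often ratios of other gene pairs separate the groups was not computed. The values of single genes did not overlap for 63.3% of all genes tested. With 2 libraries against 2, a two-sided exact permutation test cannot go below p = 0.333, so no p is given for ratios.

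**Figure D2:**
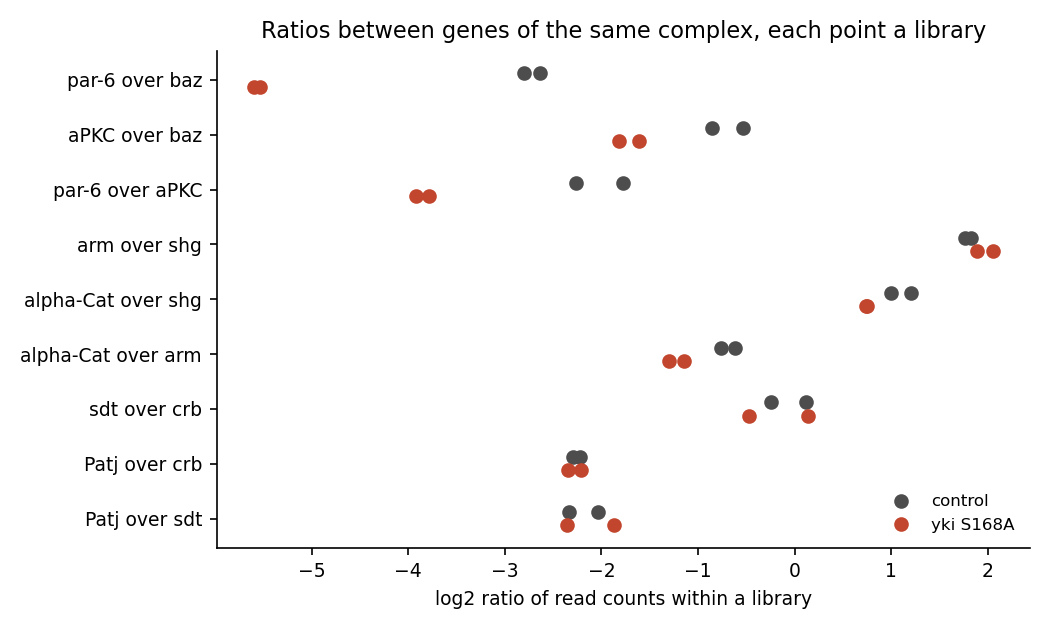
Log2 ratio of read counts between 2 genes of the same complex (x axis) for 9 gene pairs (rows), each point a library, control in grey and yki S168A in red. The par-6 over baz ratio lies at −2.64 and −2.80 in control and at −5.60 and −5.53 in yki S168A libraries, whereas the ratios among crb, sdt and Patj overlap between the groups.

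No gene of the Crumbs complex passed the test. The gene crb (FBgn0259685, chromosome 3R, 24295078 to 24314541, plus strand) encodes Crumbs, the transmembrane determinant of the apical domain. It was at 99.5 and 109.5 CPM in control and at 109 and 153 CPM in yki S168A libraries. One yki S168A library lay inside the control range and the other above it. The log2 fold change was 0.33 (95% interval −0.05 to 0.71, edgeR adjusted p = 0.193). It rested on yki S168A replicate 2: without that library it was 0.06 (adjusted p = 0.781), and without yki S168A replicate 1 it was 0.54 and passed (adjusted p = 0.0147).

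The gene sdt (FBgn0261873, chromosome X, 8178549 to 8240474, plus strand) encodes Stardust, the scaffold that binds the Crumbs tail. Its values were 108 and 92.4 CPM in control against 121 and 110 CPM in yki S168A libraries, with a gap between the groups smaller than the spread inside either. Its log2 fold change was 0.20 (95% interval −0.12 to 0.53, edgeR adjusted p = 0.350), and it was 0.32 without control replicate 1, 0.09 without control replicate 2 and 0.13 without yki S168A replicate 1. The gene Patj (FBgn0067864, chromosome 3L, 1798803 to 1802184, plus strand) encodes the multi-PDZ protein that joins Stardust. It was at 21.3 and 22.5 CPM in control and at 23.6 and 30.0 CPM in yki S168A libraries, again without overlap but with a wide yki S168A pair. Its log2 fold change was 0.29 (95% interval −0.15 to 0.74, edgeR adjusted p = 0.325). Without yki S168A replicate 2 the Patj value was 0.10, and without yki S168A replicate 1 it was 0.45, neither of them called. Of its exonic bases 5.4% lie opposite JTBR.

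Relative to each other, the Crumbs complex genes kept overlapping ratios. The log2 ratio of Patj to crb reads was −2.22 and −2.29 in control against −2.21 and −2.35 in yki S168A libraries. The spread of sdt over crb was wider, at 0.12 and −0.25 against 0.14 and −0.47. The upper bounds of the 95% intervals were 1.63-fold for crb, 1.44-fold for sdt and 1.67-fold for Patj, so rises up to those sizes lie inside the intervals.

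Of the 3 complexes, the Par complex held the largest changes. The gene baz (FBgn0000163, chromosome X, 17160006 to 17200728, plus strand) encodes Bazooka, the fly Par-3, a scaffold that places junctions and recruits the kinase complex. It drew 2348 and 2238 reads in the control pair and 3796 and 4007 reads in the yki S168A pair, or 134 and 137 CPM against 230.4 and 227 CPM. The replicates of each group lay close together and the groups far apart. Its increase from 136 ± 2.31 to 229 ± 2.17 CPM (SD, n = 2 each) amounted to 0.75 ± 0.14 on the log2 scale (SE), with an edgeR adjusted p of 0.00178. It was called in all 14 alternative fits, at 0.59 to 0.77.

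The gene par-6 (FBgn0026192, chromosome X, 17703352 to 17707096, plus strand) encodes the adaptor that couples aPKC to the GTPase Cdc42 and to Bazooka. It drew 376 and 321 reads in the control pair and 78 and 87 reads in the yki S168A pair. In CPM this was 21.5 and 19.7 against 4.74 and 4.94, so every yki S168A library was below every control library by a wide margin. The mean fell from 20.6 ± 1.25 to 4.84 ± 0.143 CPM (SD, n = 2 each), a change of −2.09 ± 0.27 on the log2 scale (SE; 95% interval −2.67 to −1.50), with an edgeR adjusted p of 1.67e-04. The fall was called in all 14 alternative fits, at −2.25 to −2.03. No exonic base of par-6 is shared with another annotated gene on either strand.

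The gene aPKC (FBgn0261854, chromosome 2R, 14944458 to 14962969, minus strand) encodes the kinase that phosphorylates Bazooka, Crumbs and Lgl. It was at 74.0 and 94.5 CPM in control and at 65.3 and 74.7 CPM in yki S168A libraries, and the groups overlapped. Its means were 84.2 ± 14.5 and 70.0 ± 6.65 CPM (SD, n = 2 each, edgeR adjusted p = 0.272). The log2 fold change of −0.27 was −0.43 without control replicate 1, −0.08 without control replicate 2 and −0.17 without yki S168A replicate 1, and none of these was called. The log2 ratio of par-6 to baz reads fell from −2.64 and −2.80 to −5.60 and −5.53. The ratio of aPKC to baz was −0.86 and −0.54 in control against −1.82 and −1.61 in yki S168A libraries, and that of par-6 to aPKC was −1.78 and −2.26 against −3.79 and −3.92. All 3 ratios separated the groups, but they share genes, and no share over other gene pairs was computed.

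**Figure D3:**
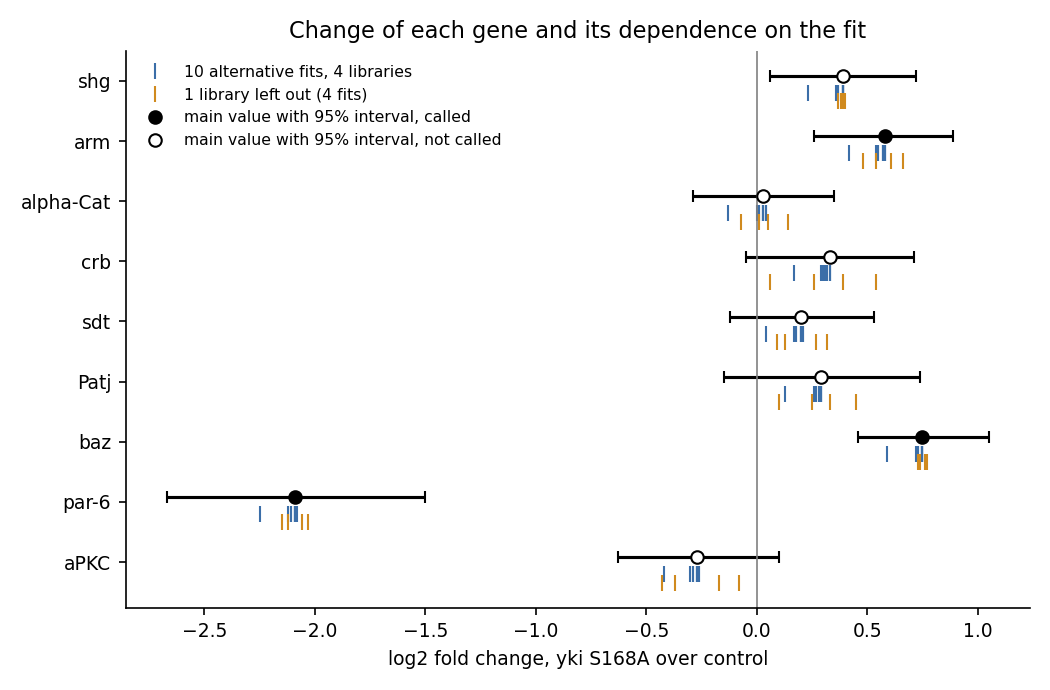
Log2 fold change of yki S168A over control (x axis) for the 9 genes (rows), with the main value and its 95% interval (filled where called), the values of 10 alternative fits to all 4 libraries (blue ticks) and those with 1 library left out (orange ticks). The values for par-6 run from −2.25 to −2.03 and those for baz from 0.59 to 0.77 over these fits, while those for alpha-Cat fall on both sides of 0.

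Scaling bears on the smaller changes. With upper-quartile factors the median log2 fold change of all genes tested moved from 0.01 to −0.15, and the genes called went from 1647 higher and 1359 lower to 1276 higher and 1924 lower. The median of the 9 genes then moved from 0.29 to 0.13. Such scaling shifts all genes alike. The calls of arm, baz and par-6 kept their direction under that scaling.

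Levels can be compared between genes only per length, here as CPM per kilobase of annotated exonic sequence. In control heads arm was highest at 49.9 ± 1.89, followed by alpha-Cat at 31.6 ± 3.38 CPM per kilobase (SD, n = 2 each). Next came aPKC at 13.1 ± 2.25, crb at 12.8 ± 0.869 and baz at 12.5 ± 0.213, which did not differ beyond their spread. Below them were sdt at 9.07 ± 0.989 and shg at 8.03 ± 0.0552, which differed by about the spread of sdt, and par-6 at 6.79 ± 0.413 and Patj at 6.64 ± 0.250, whose libraries overlapped.

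In yki S168A heads arm (74.3 ± 6.78) and alpha-Cat (32.4 ± 0.621) again led in CPM per kilobase. There baz stood in the third place at 21.0 ± 0.200, above crb at 16.1 ± 3.75. The levels of aPKC (10.9 ± 1.03), shg (10.5 ± 0.140) and sdt (10.4 ± 0.709) lay within their spread of each other. Patj was at 8.12 ± 1.38, and par-6 came last at 1.59 ± 0.0470 CPM per kilobase. With the longest transcript in place of all exonic bases, aPKC rose to 18.4 in control and 15.3 in yki S168A heads and kept its places in both orders, and shg and sdt exchanged places in yki S168A heads. By that length aPKC stood above crb (13.1) and baz (13.0) in control, and above sdt (12.6) and shg (10.5) in yki S168A heads. The likeness of aPKC to these genes given above thus depends on the length used.

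The genes differ in position and structure. Chromosome X holds 4 of them (arm, sdt, baz and par-6), among them all 3 that were called, while 28.8% of 1425 tested X-linked genes were called. They range from 1 annotated transcript for shg to 14 for sdt, and their exonic bases from 3032 for par-6 to 11042 for sdt. Gene counts do not separate isoforms.

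Because par-6 changed most, the genes beside it were looked up after its values were seen. The nearest protein-coding gene to its left, CG8188, ends 328 bases away and was at 84.9 and 96.4 CPM in control against 97.3 and 78.2 CPM in yki S168A libraries (log2 fold change −0.05, edgeR adjusted p = 0.867). The nearest to its right, CG8173, starts 305 bases away and drew 44 and 39 reads in the control pair and 17 and 43 reads in the yki S168A pair (adjusted p = 0.580). Neither was called, and in both the groups overlapped. The log2 value of CG8173, −0.48, rests on few reads and was −1.25 without yki S168A replicate 2 and −0.01 without yki S168A replicate 1. The next gene to the left, chas, was 1.58-fold higher (adjusted p = 0.0223, but 0.234 without control replicate 2 and 0.0679 with upper-quartile scaling). The next to the right, CG42684 (now raskol), had a log2 fold change of −0.40 (adjusted p = 0.137), and it passed at −0.59 without yki S168A replicate 2 (0.0381) and at −0.55 with upper-quartile scaling (0.0420). It was −0.22 without control replicate 2 (0.628) and −0.23 without yki S168A replicate 1 (0.410).

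**Figure D4:**
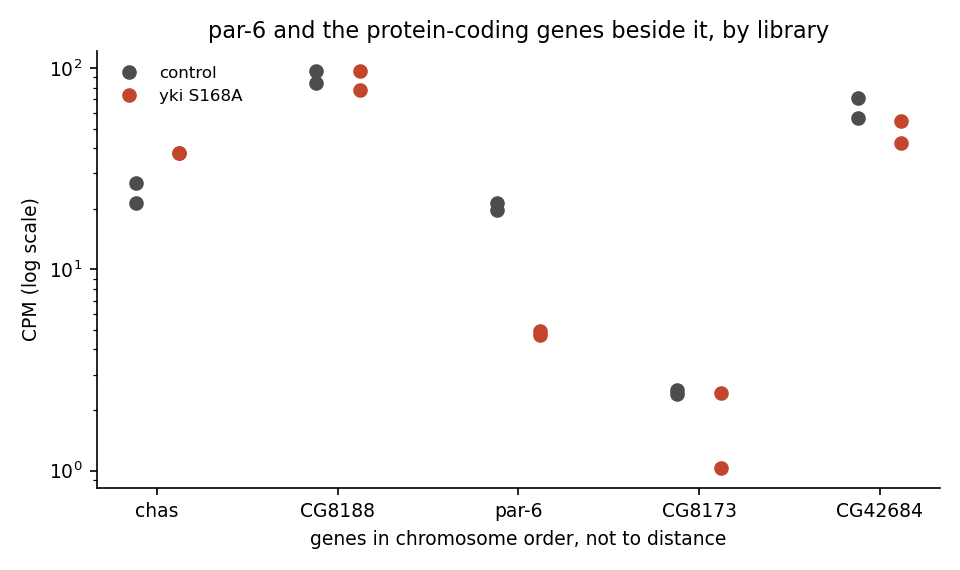
Normalised read counts (CPM, log-scaled y axis) of par-6 and the 2 protein-coding genes on each side in chromosome order (x axis, distances not drawn), each point a library, control in grey and yki S168A in red. The gene par-6 drops from 21.5 and 19.7 CPM to 4.74 and 4.94 CPM, while CG8188 lies between 78.2 and 97.3 CPM in all 4 libraries.

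The same look-up around all 9 genes gave 32 tested neighbors, of which 6 were called higher and 1 lower (21.9%). Of all genes tested 27.6% were called (15.1% higher, 12.5% lower). Named outside the rule for named genes, as the tested neighbor with the largest change, was cpa, the nearest gene to the right of shg. It encodes the alpha subunit of the actin capping protein and rose 2.81-fold (14.8 to 41.7 CPM, edgeR adjusted p = 1.74e-04). The next gene to the right, CG15653, whose span overlaps that of cpa on the opposite strand, rose 2.41-fold (adjusted p = 0.0222).

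The 3 tested genes whose pattern over the 4 libraries was most like that of par-6, by Euclidean distance of centered log2 CPM, were the thioredoxin gene TrxT (distance 0.150), the non-coding CR45640 (0.165) and the calcineurin gene CanA1 (0.188). They were lower at log2 fold changes of −2.30, −2.23 and −2.23. All are weakly expressed, at 4.36, 1.95 and 6.22 CPM in control. The call of TrxT was lost without control replicate 1 (adjusted p = 0.0835), and that of CR45640 was lost with any 1 of the libraries left out (adjusted p 0.120 to 0.214) and in 4 of 9 fits to all 4 libraries. With 4 libraries in 2 groups, likeness mostly restates the size of the fall.

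The other genes of junctions and polarity were taken as 6 lists of 43 genes, of which 40 were tested. Of these 17 were higher and 3 lower, against 15.1% and 12.5% of all genes tested, with a median log2 fold change of 0.38. The count was 9 (all higher) without control replicate 1 and 13 (12 higher, 1 lower) without control replicate 2. With upper-quartile scaling 11 were higher and 3 lower, and with no filter on low counts 14 were higher and 1 lower. The 3 lower calls became 0 without yki S168A replicate 1 and 1 in DESeq2. The epidermis markers given above rose in the same libraries, and their part in these counts was not tested.

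Of 10 adherens junction partners 4 were called higher and 1 lower, against 15.1% and 12.5% of all genes tested (median log2 fold change 0.29). The gene jub, for the LIM protein Ajuba that binds alpha-catenin and restrains the kinase Warts, was at 22.8 and 28.2 CPM in control and at 60.6 and 51.2 CPM in yki S168A libraries (2.19-fold, edgeR adjusted p = 9.35e-04). The ZO-1 gene pyd rose 1.52-fold (adjusted p = 0.0126, but 0.0823 without control replicate 1 and 0.145 without control replicate 2). The vinculin gene Vinc, whose product binds stretched alpha-catenin, rose 1.58-fold (adjusted p = 0.0140, but 0.203 without control replicate 2). The neuronal cadherin gene CadN fell 1.43-fold, from 2935 and 3149 reads to 1739 and 2571 reads (adjusted p = 0.0440). That call was lost without control replicate 1 (0.0888), control replicate 2 (0.280) or yki S168A replicate 1 (0.150, log2 fold change −0.31). It was also lost with no filter on low counts (0.0701) and in the legacy fit (0.0569).

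Thus the epithelial cadherin gene shg and the neuronal CadN had log2 fold changes of opposite sign, 0.39 (95% interval 0.06 to 0.72) and −0.52 (−0.90 to −0.14), of which the first did not pass. The fall of the photoreceptor and neuron markers stands beside the CadN value, and its part in it was not tested.

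Junctional actomyosin genes build and tense the belt of actin at the junction. Of 9 such genes 4 were called higher and 0 lower, against 15.1% and 12.5% of all genes tested (median 0.70). The myosin light chain gene sqh was at 88.6 and 86.9 CPM in control and at 269.5 and 285 CPM in yki S168A libraries, 3.16-fold higher (edgeR adjusted p = 7.49e-06). The GTPase gene Rho1, which activates that myosin, rose 2.25-fold (adjusted p = 9.49e-05). The myosin heavy chain gene zip rose 1.80-fold (adjusted p = 0.00489, but 0.112 without control replicate 1).

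Of 8 apical complex partners 4 were called higher and 0 lower, against 15.1% and 12.5% of all genes tested (median 0.66). The actin-membrane linker gene Moe rose 1.74-fold (edgeR adjusted p = 0.00270, but 0.116 without control replicate 1) and the lipid kinase gene sktl 1.72-fold (adjusted p = 0.00328). The gene kst, for the heavy spectrin that binds Crumbs, rose 1.61-fold (adjusted p = 0.0200). The kst call was lost without control replicate 1 (0.45 on the log2 scale, adjusted p = 0.258), without yki S168A replicate 1 (0.60, 0.0595) and with upper-quartile scaling (0.53, 0.0565). Named outside the rule for named genes, as the GTPase that par-6 binds, Cdc42 was at 8.80 and 24.4 CPM in control against 24.8 and 28.1 CPM in yki S168A libraries and was not called (log2 fold change 0.68, adjusted p = 0.181). Its 2 control libraries differed widely, and the value was 0.12 without control replicate 1 and 1.59, passing, without control replicate 2 (adjusted p = 0.00224).

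Of 8 basolateral polarity genes 4 were called higher and 0 lower, against 15.1% and 12.5% of all genes tested (median 0.47). The gene l(2)gl, for the aPKC substrate that opposes the apical complexes, was at 15.1 and 13.6 CPM in control and at 40.8 and 36.9 CPM in yki S168A libraries (2.70-fold, edgeR adjusted p = 2.44e-04). The band 4.1 gene cora rose 1.81-fold (adjusted p = 0.00134). The scaffold gene scrib rose 1.46-fold (adjusted p = 0.0172) but did not pass without control replicate 1 (0.114), without control replicate 2 (0.179) and with upper-quartile scaling (0.0718).

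**Figure D5:**
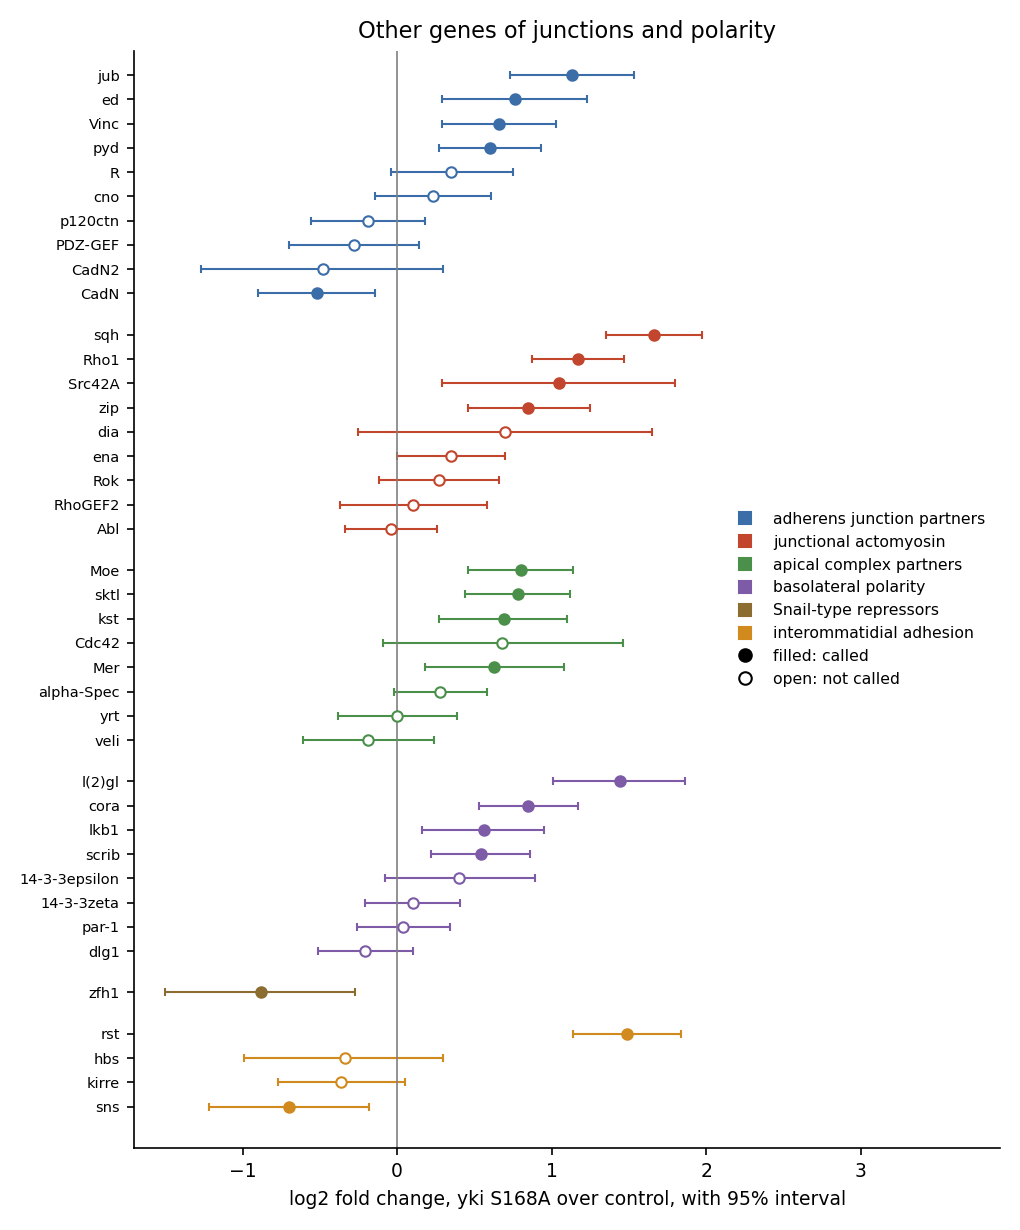
Log2 fold change of yki S168A over control with its 95% interval (x axis) for the 40 tested genes of the 6 lists of other junction and polarity genes (rows, colored by list), filled where called. The genes sqh (1.66), rst (1.49) and l(2)gl (1.44) lie farthest right, and zfh1 (−0.88) farthest left.

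Snail family transcription factors, of which Snail represses shg in the fly embryo, were scarce. The genes sna and wor had 0 counts in all libraries, which allows up to 0.166 to 0.191 CPM by counting error alone, and esg had 6, 1, 5 and 20 counts and was not tested. The zinc-finger homeodomain gene zfh1, a relative of the ZEB repressors, fell from 12.6 ± 0.264 to 6.82 ± 0.491 CPM (SD, n = 2 each, edgeR adjusted p = 0.0365). That call was lost with any 1 library left out: without control replicate 1 (adjusted p = 0.146), control replicate 2 (0.165), yki S168A replicate 1 (0.0526) or yki S168A replicate 2 (0.0826). It was also lost in DESeq2 (0.0674).

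Interommatidial adhesion genes encode immunoglobulin proteins through which pigment cells of the eye sort themselves around ommatidia. Of 4 such genes 1 was called higher and 1 lower, against 15.1% and 12.5% of all genes tested (median −0.35). The gene rst was at 36.0 and 30.3 CPM in control and at 89.7 and 96.3 CPM in yki S168A libraries, 2.81-fold higher (edgeR adjusted p = 4.65e-05). Its nephrin-type partner gene sns fell 1.63-fold (adjusted p = 0.0473) but not when control replicate 1 (−0.41 on the log2 scale, adjusted p = 0.468) or yki S168A replicate 1 (−0.60, 0.133) was left out. The sns call was also lost with no filter (0.0626), DESeq2 (0.0700) and limma-voom (0.0562). The rst paralog gene kirre had a log2 fold change of −0.36 (adjusted p = 0.179), which was −0.69 without yki S168A replicate 2, where it passed (0.00401), and −0.10 without yki S168A replicate 1 (0.641).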

How the data were processed

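Lexogen SENSE mRNA libraries were prepared from 30 adult heads each, per the labels' protocols. The authors deposited whole-number read counts per gene symbol, 1 table per library. The submitters' processing notes name build dm6. Aligner, counter, annotation and strand setting: not given in the sources used here. Reads of genes that overlap on opposite strands may therefore be mixed. Lines sharing a symbol (37 lines, 17 symbols) were summed. Coordinates, exonic lengths and overlaps came from the Ensembl annotation in dm6 coordinates, which may differ from the authors' annotation.

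The test was edgeR 4.0.16 (R 4.3.3) with filterByExpr, TMM scaling, estimateDisp, glmQLFit and glmQLFTest on group, adjusted by Benjamini-Hochberg over 10896 genes. CPM are TMM-scaled, SDs cover 2 libraries, and each SE is the size of the log2 fold change divided by the root of F. Floors and counting intervals ignore PCR duplicates, since no molecular identifiers are named. Replicate libraries differed by more than counting noise (chi-square per degree of freedom 17.3 in control, 50.8 in yki S168A).

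Alternatives were RLE and upper-quartile scaling, the 20 most abundant genes left out, no filter, a mean of 10 CPM, legacy and robust fits, DESeq2 1.42.0, limma-voom (limma 3.58.1), a replicate block, an adjusted p of 0.01 and each library left out. The procedure was also run on simulated data with the same spread for all genes. That run does not cover spread that differs between genes or groups. Members and lists were chosen with earlier results of these data known. Named were yki, the 9 genes, the 3 smallest p of each of 6 lists with the top call of the other direction, and the 3 genes most like par-6. Of the list genes, 4 appear in the files under older symbols (R for Rap1, lkb1, Cry for Crys, Rfabg for apolpp).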

Additional observations from a re-analysis of the deposited data

How the results depend on the processing

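The calls of baz and par-6 were kept in all 14 alternative fits, and that of arm in 12, all but those without a control library. Among alternative values for the 9 genes, 120 kept their direction and their side of the threshold, 2 lost the call, 2 gained it and 2 changed sign. The sign of alpha-Cat, never called, turned to −0.13 with upper-quartile scaling and its value ran from −0.07 to 0.14 with 1 library left out. With 1 library left out, the genes called ran from 1634 to 3123, and the other pathway genes called from 9 to 17, of 3006 and 20 with all libraries. An adjusted p below 0.01 gave 1691 and 9 and kept baz and par-6 but not arm. The labels do not say whether same-numbered libraries share a cross, day or batch. Their deviations had a correlation of 0.02 across genes. That value cannot settle the question, because the 2 libraries of a group mirror each other. A replicate block in edgeR gave 3626 calls, with 4 of the 9 genes called, shg among them (adjusted p = 0.0488). It also called 22 other pathway genes, and kirre (0.0257), CG42684 (0.0461) and Cdc42 (0.00417) passed in it. For fits without 1 library, the lone library of a group is assumed to vary like the others. Calls over all genes tested fell most without either control library, so many genes lost their call there, while baz and par-6 kept theirs. The sign of CG8188, never called, ran from −0.21 to 0.10 with 1 library left out. Among alternative values for the other named genes, 326 kept call and direction, 38 lost the call, 7 gained it and 2 changed sign. Depth limits the scarcest genes, sna and wor, which had 0 counts in all libraries.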
